A study of Mus musculus with 8 samples.

Results

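The mitochondrial calcium uniporter complex was followed through the transcripts of 7 genes chosen by name: Mcu, Mcub, Micu2, Micu3, Smdt1, Slc8b1 and Letm1. They were 7 of the 32285 genes counted in each library, and all 7 passed the filter on low counts in each of the 8 cell classes tested. Nuclei of whole hearts were sequenced from 9-week-old male mice, with 1 single-nucleus RNA-seq library per mouse, for 4 wild-type (WT) mice and 4 mice with a knockout of Tafazzin (Taz-KO). Neither group received a treatment, and the sources used here give no promoter or Cre for the knockout line and do not say which part of the gene it lacks. Tafazzin is the acyltransferase that remodels cardiolipin, the signature lipid of the inner mitochondrial membrane. The comparison asks whether the transcripts of a membrane complex that depends on cardiolipin differ between Taz-KO and WT hearts in any cell type.

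The uniporter lets calcium enter the mitochondrial matrix down the membrane potential, and in cardiac muscle this entry matches the supply of ATP to the work of contraction. Mcu forms the pore, Mcub is a paralog that conducts poorly and lowers the activity of pores it joins, and Smdt1 (EMRE) is the small membrane protein that links the pore to its gatekeepers. Micu2 and Micu3 are EF-hand proteins of the intermembrane space that set the calcium threshold at which the pore opens. Slc8b1 (NCLX) is a sodium/calcium exchanger that carries calcium out of the matrix, and Letm1 is an inner-membrane cation/proton exchanger.

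Cell Ranger had called between 3492 and 36308 barcodes per library, with 20025456 to 348080773 UMIs (unique molecular identifiers, each 1 captured transcript) in all. Taz-KO replicates 4685 and 5301 held the fewest barcodes, 3492 and 5571, against 21190 to 36308 in the other libraries, and pairs of libraries shared at most 1.04% of the smaller library's barcodes. Nuclei were assigned to a class by cluster, from marker genes such as Ryr2 and Ttn for cardiomyocytes (CMs), Pdgfra and Bicc1 for fibroblasts (FBs), Ptprb and Flt1 for endothelial cells (ECs) and F13a1 and Mrc1 for macrophages (MACs). Of 151264 nuclei kept, 24783 were CMs, 36007 FBs, 21175 ECs and 11759 MACs, and 31.2% stayed unnamed. Every barcode kept is called a nucleus here. The study describes using fewer nuclei per heart than the 21190 to 36308 barcodes of the larger libraries. On that account not every barcode kept there can hold a nucleus, and which ones do was not tested. Counts of nuclei, levels and shares of nuclei carry this limit. The study kept fewer nuclei, after a background correction. The mitochondrial share of UMIs, as a median over mice, was 7.15% in CMs, 16.4% in FBs, 18.6% in ECs and 18.1% in MACs. In Taz-KO replicate 4685 the unnamed nuclei were 75.0% (2534 nuclei), against 25.3% to 36.6% in the other libraries, and it held 148 CM and 133 MAC nuclei. Levels are in CPM, the standard depth-scaled UMI count relative to all UMIs of nuclear genes, over the summed nuclei of 1 mouse and class. Where 4 values are given, they follow the order of replicates 4686, 4909, 5355 and 5356 for WT and 4685, 4910, 5300 and 5301 for Taz-KO. Nuclei of 1 mouse were not treated as replicates, so n is the number of mice. The CM level of Taz itself was 53.8, 49.6, 55.0 and 48.8 CPM among WT mice, compared with 43.5, 38.5, 28.3 and 31.6 CPM among Taz-KO mice. All 4 Taz-KO mice were below all 4 WT mice, with a log2 fold change of -0.64 (SE 0.18, adjusted p = 0.0374 by edgeR's quasi-likelihood test), so Taz transcript was lower but still counted in the Taz-KO libraries. Leaving out any of 7 of the 8 mice ended that call, with log2 fold changes between -0.72 and -0.48. Taz was at 34.8 to 37.8 CPM in WT and 19.5 to 33.6 CPM in Taz-KO FBs, without overlap. In ECs it was at 29.3 to 37.0 against 10.3 to 20.8 CPM, and in MACs at 31.7 to 41.9 against 15.9 to 22.3 CPM. Every Taz-KO mouse was below every WT mouse for 285 of 17629 genes in FBs, 276 of 16069 in ECs and 227 of 13941 in MACs. Of the 8 classes only lymphatic endothelial cells had overlapping Taz groups.

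In CMs 0 of the 7 members passed the test, in a class where edgeR called 15.3% of all genes. Mcu, the pore, was the 1 member whose genotypes did not overlap. Its level was 94.2, 99.6, 97.0 and 122.0 CPM among WT mice, compared with 91.3, 73.1, 65.4 and 88.8 CPM among Taz-KO mice. All 4 Taz-KO mice were below all 4 WT mice, with the highest Taz-KO and the lowest WT value close together. Among all genes tested in CMs, 7.67% had every Taz-KO mouse below every WT mouse. The log2 fold change was -0.47 (SE 0.22, 95% interval -0.95 to 0.02), with an adjusted p of 0.19 by edgeR's quasi-likelihood test. Without the 2 libraries with few nuclei, Taz-KO replicates 4685 and 5301, the same fit gave -0.78 (adjusted p = 0.0798). In nuclei with at most 5% mitochondrial UMIs it gave -0.63 (adjusted p = 0.0653). With 1 mouse left out in turn it ranged from -0.60 to -0.31, and the smallest values were -0.31 without Taz-KO replicate 5300 (adjusted p = 0.328) and -0.32 without WT replicate 5356 (adjusted p = 0.356).

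Mcub, the poorly conducting paralog, had the largest point estimate of the 7 in CMs but a low level there. WT mice had 4.18, 5.80, 5.45 and 2.42 CPM, whereas Taz-KO mice had 2.16, 2.82, 4.04 and 1.24 CPM, and the groups overlapped. The log2 fold change was -0.84 (SE 0.32, 95% interval -1.55 to -0.14), with an adjusted p of 0.103 by edgeR's quasi-likelihood test and 0.0589 by DESeq2. Without Taz-KO replicates 4685 and 5301 it was -0.58 (adjusted p = 0.309 by edgeR). Mcub transcripts were far more abundant in macrophages, and the summed macrophage markers in the CM nuclei ranged from 146 to 308 CPM in WT and from 40.0 to 304 CPM in Taz-KO mice. The summed B lymphocyte markers in the same nuclei were 19.3 to 28.2 CPM in WT and 3.46 to 15.8 CPM in Taz-KO mice, without overlap. In the barcodes of each library with the fewest UMIs, scaled by the mitochondrial share of the CM nuclei relative to theirs, Mcub was higher than in the CM nuclei themselves. The CM level was a median 0.504 times that scaled level (0.36 to 0.632), above it in 0 of 8 mice. Mcub was thus not seen above this reference in CMs. The low-UMI barcodes had been called as cells and can hold nuclei. The largest held 616 UMIs in Taz-KO replicate 5301 and 7021 in WT replicate 4909. The reference therefore cannot tell background from CM transcript, and the fold change of Mcub is not read as a change of expression in CMs. The part of the other cell types' markers was not tested.

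The gatekeepers were not called either. Micu2 was at 98.8, 116, 106 and 119 CPM in WT and 153, 127, 98.2 and 99.1 CPM in Taz-KO cardiomyocytes, and Micu3 at 52.2, 51.3, 36.9 and 50.5 CPM in WT and 57.8, 60.8, 45.8 and 56.8 CPM in Taz-KO. The genotypes overlapped for both genes. The log2 fold changes were 0.02 (SE 0.20, 95% interval -0.42 to 0.45) for Micu2 and 0.12 (SE 0.21, 95% interval -0.33 to 0.58) for Micu3. Smdt1, the link between pore and gatekeepers, spread more within a group than between the groups, at 28.8, 45.6, 41.7 and 11.3 CPM in WT and 37.5, 34.5, 50.1 and 10.7 CPM in Taz-KO mice. The low values were those of WT replicate 5356 and Taz-KO replicate 5301. Its log2 fold change of -0.05 had a 95% interval from -1.03 to 0.93, the widest of the 7 in this class.

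The transporters that return calcium or exchange cations were not called. Slc8b1 was at 8.27, 10.7, 7.99 and 8.31 CPM in WT and 9.18, 11.6, 14.6 and 7.905 CPM in Taz-KO cardiomyocytes, a log2 fold change of 0.19 (SE 0.19, 95% interval -0.23 to 0.61). After 20% of each sum was subtracted with the profile of low-UMI barcodes, the Slc8b1 estimate was 0.95 (adjusted p = 0.0758 by edgeR's quasi-likelihood test), and in nuclei with at most 5% mitochondrial UMIs it was 0.54. Letm1 stood at 42.0, 43.6, 38.2 and 23.8 CPM in WT mice and at 39.4, 39.6, 47.5 and 41.6 CPM under knockout, a log2 fold change of 0.11 (SE 0.17, 95% interval -0.26 to 0.48). The genotypes overlapped for each gene. Over the 7 members the median log2 fold change in CMs was 0.02, against -0.01 over all 18249 genes tested, and 0 of 7 were called at an adjusted p below 0.05 by edgeR and 0 by DESeq2. Of all genes in CMs, DESeq2 called 19.3%. At an unadjusted p below 0.05 there was 1 member, Mcub, against 29.0% of all genes in that class.

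**Figure D1:**
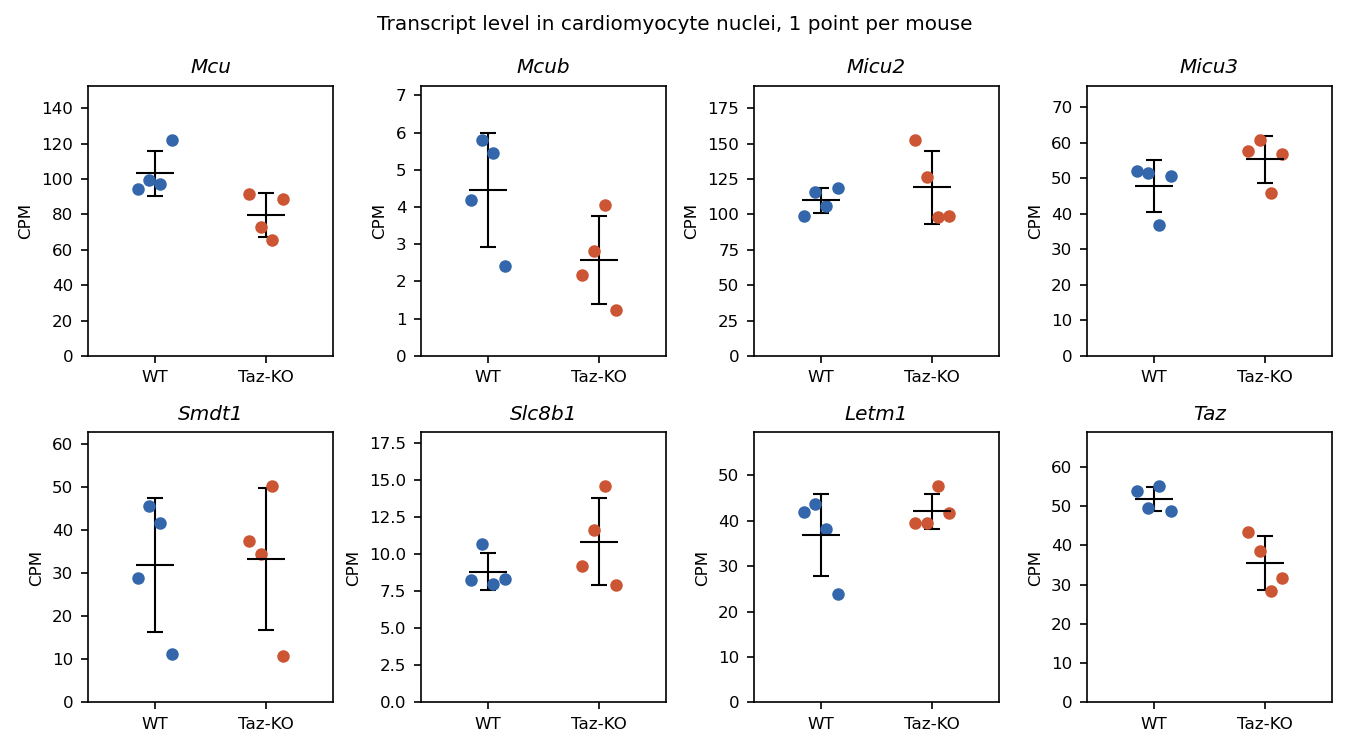
CPM of the 7 members and of Taz in cardiomyocyte nuclei, 1 point per mouse, with the mean and SD of 4 mice per genotype. Mcu and Taz are the panels in which the WT and Taz-KO points do not overlap, and Mcu runs from 65.4 to 91.3 CPM in Taz-KO and from 94.2 to 122.0 CPM in WT mice.

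The 3 other main classes gave no call either. In FBs Mcu was at 198, 192, 206 and 249 CPM in WT and 220, 168, 146 and 252 CPM in Taz-KO mice, in ECs at 199, 161, 200 and 245 against 168, 190, 171 and 332 CPM, and in MACs at 137, 98.3, 127 and 139 against 73.1, 105, 102 and 169 CPM. Each of these pairs of groups overlapped, with log2 fold changes of -0.18 (SE 0.20), 0.03 (SE 0.27) and -0.21 (SE 0.27). With 1 mouse left out in turn, they ranged from -0.36 to -0.055 in FBs, from -0.27 to 0.12 in ECs and from -0.49 to -0.068 in MACs. The members' log2 fold changes ranged from -0.37 to 0.03 in FBs, from -0.29 to 0.16 in ECs and from -0.21 to 0.35 in MACs. The lowest adjusted p by edgeR's quasi-likelihood test was 0.50 in FBs, 0.716 in ECs and 1.00 in MACs. In these classes edgeR called few genes of any kind, 0.352% in FBs, 0.417% in ECs and 0.215% in MACs, and DESeq2 called 0 members and 1.96%, 1.80% and 0.947% of all genes. With 1 mouse left out, the edgeR share ranged from 0.0344% to 0.703% in FBs, from 0.0734% to 0.896% in ECs and from 0.0139% to 0.840% in MACs. The 1 member at an unadjusted p below 0.05 was Mcub in FBs, with 21.7, 20.9, 26.0 and 22.3 CPM in WT, 23.0, 14.6, 20.3 and 17.8 CPM in Taz-KO and a log2 fold change of -0.37 (SE 0.16). Of all genes 9.61% in FBs, 8.37% in ECs and 5.85% in MACs were at an unadjusted p below 0.05. The summed B lymphocyte markers in the FB nuclei were 41.4 to 59.5 CPM in WT and 15.8 to 37.8 CPM in Taz-KO mice, without overlap, and their part in that value was not tested.

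**Figure D2:**
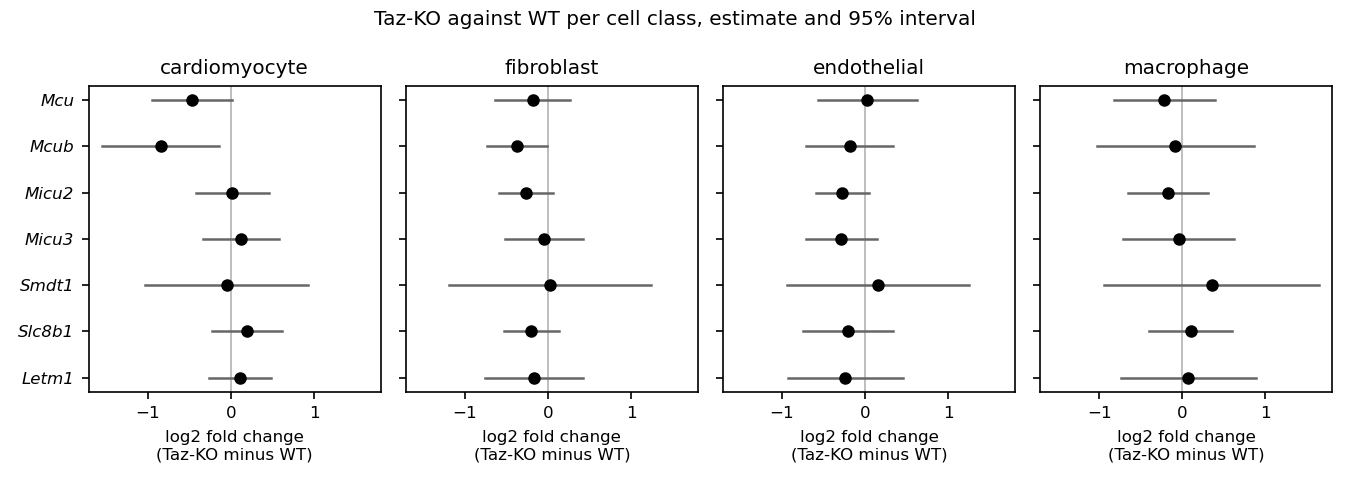
Log2 fold change of each member, Taz-KO minus WT, with its 95% interval in the 4 main cell classes. Of the 28 intervals 26 include 0, and the other 2 are those of Mcub in cardiomyocytes and fibroblasts.

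In the 4 smaller classes no member was called, where edgeR called 0.0956% of genes in lymphatic endothelial cells, 0.134% in pericytes, 0.0906% in mesothelial cells and 3.85% in adipocytes. Adipocytes, with 728 nuclei in all, gave the widest spread of members. Taz-KO replicate 4685 had 4 of these nuclei and was left out of the fit, which compared 4 WT with 3 Taz-KO mice. The members described in adipocytes and pericytes were chosen after their values were seen. Mcub had a log2 fold change of -1.54 (SE 0.42, adjusted p = 0.0652) and Letm1 one of 0.88 (SE 0.28, adjusted p = 0.0950), and neither passed edgeR's quasi-likelihood test. Mcub adipocyte means were 36.7 ± 18.2 CPM over 4 WT mice and 12.9 ± 1.92 CPM over 3 Taz-KO mice (SD), and Letm1 means were 38.4 ± 16.0 and 73.7 ± 4.21 CPM. The genotypes did not overlap for Mcub and Micu2, both with lower Taz-KO values, or for Letm1, with higher ones, where 11.4% of all adipocyte genes had every Taz-KO mouse lower and 6.06% every Taz-KO mouse higher. At an unadjusted p below 0.05 there were 5 of 7 adipocyte members, against 22.7% of all genes in that class, and 0 in each of the other 3 small classes. The summed macrophage markers in the adipocyte nuclei were 876 to 2059 CPM in WT and 245 to 792 CPM in Taz-KO mice, without overlap. B lymphocyte markers (86.7 to 261 against 28.0 to 54.4 CPM) and T lymphocyte markers (15.4 to 68.1 against 0 to 11.9 CPM) were also lower in Taz-KO adipocyte nuclei without overlap, and smooth muscle markers (8.67 to 35.2 against 49.0 to 149.8 CPM) higher. Their part in the members' values was not tested. In pericytes, where Mcub was at 18.9, 15.9, 17.6 and 14.9 CPM in WT, it was at 14.3, 9.24 and 3.10 CPM in 3 Taz-KO mice, and Taz-KO replicate 4685 had 0 Mcub counts, which allows up to 41.1 CPM at its depth. Of all pericyte genes 1.57% had every Taz-KO mouse below every WT mouse. The pericyte level of Mcub was a median 0.939 times the level scaled from low-UMI barcodes by Ttn and 0.742 times that scaled by the mitochondrial share, above it in 3 and 1 of 8 mice. Mcub was thus not seen above this reference in pericytes. The reference cannot tell background from pericyte transcript, and the lower Taz-KO values of Mcub are not read as a change of expression in pericytes.

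Whether a Taz-KO effect differed between CMs and another class was tested on the difference of the 2 classes within each mouse with limma. None of 21 tests, 7 members against FBs, ECs and MACs, passed after adjustment, and the lowest adjusted p was 0.199. Across all genes 3.36% passed against FBs, 1.29% against ECs and 0.571% against MACs. At an unadjusted p below 0.05 there were 2 of 7 against FBs, 4 of 7 against ECs and 0 of 7 against MACs, beside 17.9%, 14.2% and 11.2% of all genes. The lowest was Mcu against FBs, where the CM effect was lower by a log2 difference of -0.25 (SE 0.09), and against ECs it was -0.42 (SE 0.19, adjusted p = 0.351). Thus the Mcu shift in CMs was not shown to be larger than in other cells.

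The balance of subunits was compared as the log2 ratio of a partner's summed counts to those of Mcu in the same nuclei, which needs no scaling between libraries. In CMs the Micu3 to Mcu ratio was -1.12 ± 0.26 in WT and -0.52 ± 0.18 in Taz-KO mice (SD, n = 4 each), and the groups did not overlap. That difference of 0.60 had an unadjusted p of 0.0286 by the exact two-sided permutation test, the smallest that 4 against 4 mice can give, and an adjusted p of 0.457 over the 16 ratios. The Micu2 to Mcu ratio was 0.09 ± 0.11 in WT and 0.57 ± 0.29 in Taz-KO cardiomyocytes, a difference of 0.48 (exact permutation p = 0.0571, adjusted p = 0.457). Both ratios hold the same Mcu counts, which ran lower in Taz-KO mice, so they are not separate results for each partner. The share of all genes whose ratio to Mcu does not overlap between genotypes was not computed. For Mcub and Smdt1 the differences in CMs were -0.43 and 0.42, within SDs of 0.72 to 1.13. With 1 mouse left out in turn, the Mcub difference ranged from -0.78 to -0.076 and the Smdt1 difference from -0.096 to 0.96. No ratio of the 12 in FBs, ECs and MACs had an unadjusted p below 0.05.

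The share of nuclei with at least 1 UMI of a member was compared after each nucleus was thinned to 1000 UMIs. Mcu was found in 9.39% ± 1.06 of WT and 8.06% ± 1.47 of Taz-KO cardiomyocytes (SD, n = 4 each), and before thinning in 58.1% and 51.1%. In thinned macrophages Mcub was found in 9.01% ± 1.09 of WT and 8.66% ± 6.14 of Taz-KO nuclei, against 0.477% ± 0.164 and 0.410% ± 0.237 of cardiomyocytes. None of the 28 comparisons of genotype, 7 members in 4 classes, passed the exact permutation test, with a lowest unadjusted p of 0.0571 and a lowest adjusted p of 0.80. Thinning left out 7 CM, 54 EC and 38 MAC nuclei of Taz-KO mice as too shallow, and 0 of WT mice.

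Mcub had the widest range between the main cell classes of the 7 members. Its mean over WT mice was 107 ± 18.3 CPM in macrophages and 4.46 ± 1.53 CPM in cardiomyocytes (SD, n = 4 each), and macrophages were higher in 8 of 8 mice by a mean log2 difference of 4.53 ± 0.96 (SD) on the log2(CPM + 1) scale. The CM level was not above the low-UMI reference described earlier, which cannot tell background from CM transcript, so this difference is uncertain in size. In the Taz-KO macrophages Mcub was at 43.8, 89.2, 73.4 and 215 CPM, the highest in replicate 5301, against 80.2 to 121 CPM in WT macrophages. The next class in order was mesothelial cells, at 36.8 ± 6.99 CPM in WT mice. Macrophages were above them in 7 of 8 mice. In Taz-KO replicate 4685 mesothelial cells were at 51.0 CPM against 43.8 CPM in macrophages. FBs, at 22.7 ± 2.26 CPM, and ECs, at 14.9 ± 3.64 CPM, were above cardiomyocytes but far below macrophages. The highest and the lowest main class of each member were picked from the WT means, so these differences carry no p.

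Mcub lies at chr3:129914960-129970206 and Mcu at chr10:59446984-59616692 (GRCm38), both on the minus strand. The start regions of Mcub, the member with the widest range between main classes, and of the pore gene are shown side by side. The 250 bases before each annotated start are given from RefSeq (GRCm38.p6), at chr3:129970207-129970456 and chr10:59616693-59616942, 5′ to 3′. RefSeq windows were matched for 5 of the 7 members. Capitals mark matches, on either strand, to CCAAT (the CCAAT box), GGGCGG (the GC box) or GAGGAA (a purine-rich core found in sites of the myeloid factor PU.1).
Mcub: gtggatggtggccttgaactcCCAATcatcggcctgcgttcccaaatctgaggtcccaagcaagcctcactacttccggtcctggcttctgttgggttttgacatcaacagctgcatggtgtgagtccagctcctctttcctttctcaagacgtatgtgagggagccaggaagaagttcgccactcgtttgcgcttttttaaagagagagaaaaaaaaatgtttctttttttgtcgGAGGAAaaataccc
Mcu: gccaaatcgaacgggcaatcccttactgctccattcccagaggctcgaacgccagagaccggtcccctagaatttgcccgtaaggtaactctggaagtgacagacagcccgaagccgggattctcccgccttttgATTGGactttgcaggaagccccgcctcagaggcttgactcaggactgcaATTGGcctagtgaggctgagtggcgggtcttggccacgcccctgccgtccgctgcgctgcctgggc
The Mcub window holds 1 CCAAT and 1 GAGGAA match and has a GC content of 48%, and the Mcu window holds 2 CCAAT matches and has a GC content of 60.8%. Among all 32851 windows of the same length, 33.9% hold CCAAT, 32.7% GGGCGG and 23.3% GAGGAA, so each match is common. A match is a description of letters and not a bound site.

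Slc8b1, the exchanger that carries calcium out, was also higher outside muscle cells. In WT mice it was at 60.1 ± 5.78 CPM in MACs, 57.6 ± 10.5 CPM in pericytes and 55.9 ± 9.17 CPM in FBs, against 8.82 ± 1.26 CPM in CMs (SD, n = 4 each). Macrophages exceeded cardiomyocytes in 8 of 8 mice by a mean log2 difference of 2.58 ± 0.47 (SD). The CM level of Slc8b1 was not clearly above the level scaled from low-UMI barcodes, so this difference is uncertain in size. The order of the WT means began with adipocytes, macrophages, pericytes and FBs. The mean log2 difference was -0.58 ± 0.79 (SD, 7 mice) for adipocytes minus macrophages, 0.14 ± 0.55 (8 mice) for macrophages minus pericytes and 0.09 ± 0.33 (8 mice) for pericytes minus FBs, each within its spread over mice.

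Mcu was highest in mesothelial cells, at 305 ± 73.4 CPM in WT mice, and in lymphatic endothelial cells, at 287 ± 48.8 CPM, with a mean log2 difference of 0.02 ± 0.18 (SD) within mice, in that direction in 4 of 8. FBs at 211 ± 26.1 CPM and ECs at 201 ± 34.3 CPM followed, and CMs were lowest at 103 ± 12.8 CPM. FBs were higher than CMs in 8 of 8 mice, by a mean log2 difference of 1.15 ± 0.17 (SD). CPM is a share of UMIs and not a count per nucleus. In each mouse the median CM nucleus held more UMIs than the median FB nucleus (12605 and 5835 in WT replicate 4686). Before thinning, Mcu was found in 58.1% of WT CMs and 57.0% of WT FBs. The order of classes by CPM is therefore not an order of Mcu transcripts per nucleus. Within ECs Mcu was at 301 ± 64.2 CPM in WT nuclei of 1 of the 2 endothelial clusters and at 152 ± 34.1 CPM in the other. Within CMs, whose 4 clusters ranged from 94.8 to 114 CPM of Mcu in WT mice, the cluster means of Taz-KO mice were 67.5 to 99.8 CPM and each was below the WT mean of the same cluster, in 1 cluster over 3 Taz-KO mice. These clusters were built from other genes than the members, and their levels are given as a description.

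Micu2 ranged from 78.4 ± 9.41 CPM in pericytes to 142 ± 17.8 CPM in mesothelial cells of WT mice. Micu3 was between 47.7 ± 7.26 CPM in CMs and 94.0 ± 9.56 CPM in adipocytes, with FBs above CMs in 8 of 8 mice (mean log2 difference 0.80 ± 0.23, SD). Before thinning, Micu3 was found in 38.7% of WT CMs and 35.0% of WT FBs, so this order too is not one of transcripts per nucleus. The classes were ordered by their WT means, so neighbours were compared as a description, with no test. Neighbours with the same direction in 8 of 8 mice were Mcu in lymphatic endothelial cells over FBs, Micu2 in CMs over ECs, Micu3 in MACs over ECs, Slc8b1 in mesothelial cells over CMs and Mcub in ECs over CMs, where neither Mcub level was above the low-UMI reference. Mcub was also lower in pericytes than in FBs in 7 mice, and the eighth, Taz-KO replicate 4685, had 0 pericyte counts and gives no direction.

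**Figure D3:**
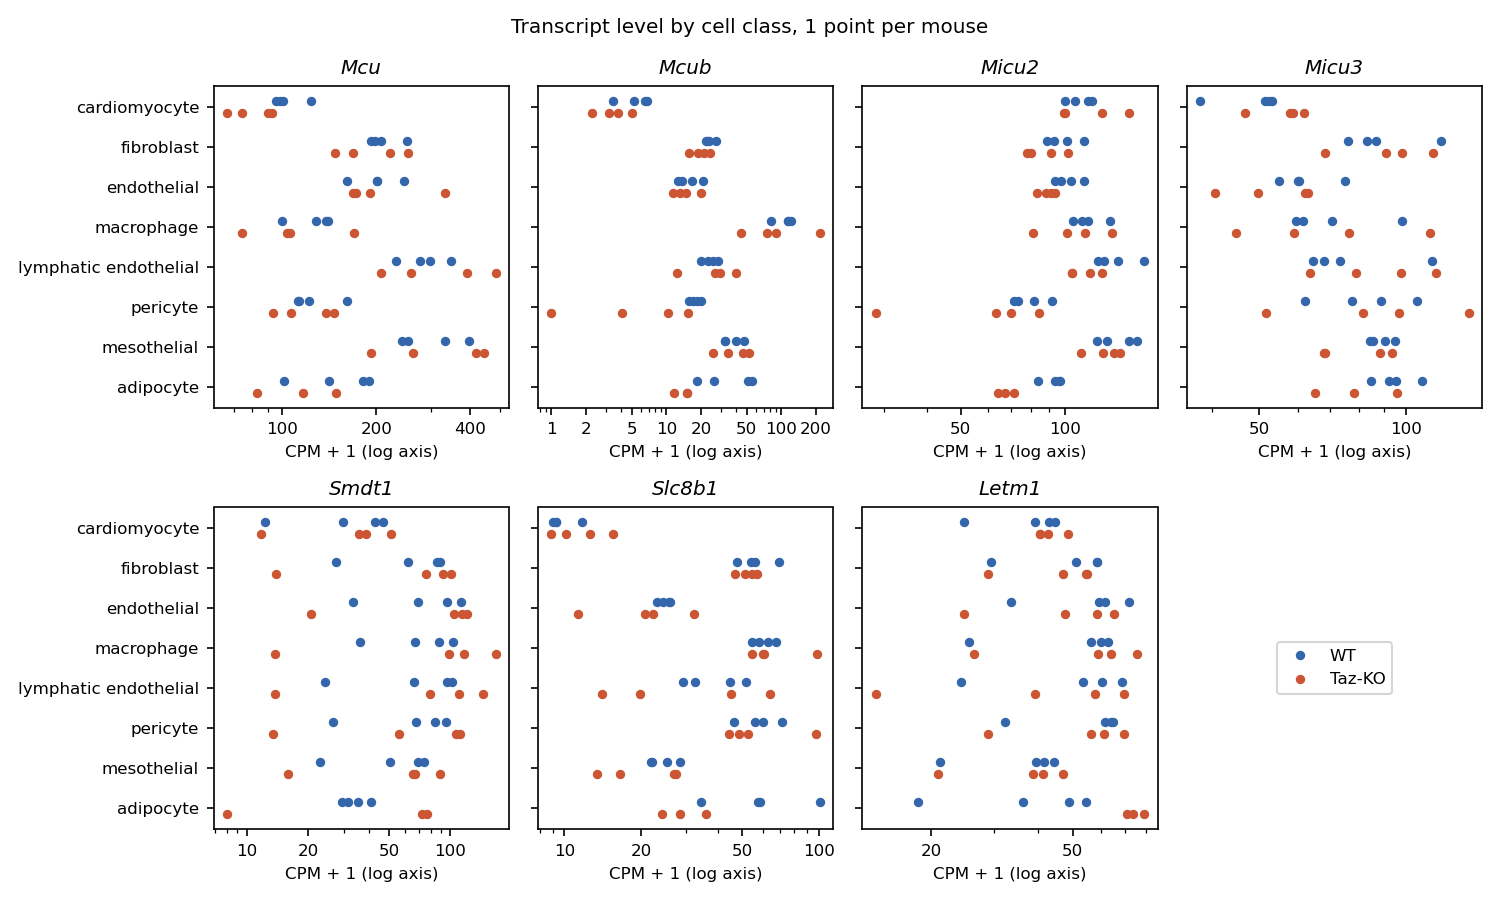
CPM + 1 of each member on a log axis in 8 cell classes, 1 point per mouse, WT above Taz-KO in each row. Macrophages stand out for Mcub, with 43.8 to 215 CPM in all 8 mice against 1.24 to 5.80 CPM in cardiomyocytes, while the genotypes overlap in most rows. In Taz-KO replicate 4685 mesothelial cells, at 51.0 CPM, were above macrophages for Mcub.

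Smdt1 and Letm1 lay nearest to the levels of low-UMI barcodes in FBs and MACs. Smdt1 was at 77.0 ± 34.8 CPM in ECs and 31.8 ± 15.5 CPM in CMs of WT mice, and Letm1 at 55.5 ± 16.2 and 36.9 ± 9.0 CPM (SD, n = 4 each). As a reference, each member was read in the 10% of barcodes of a library with the fewest UMIs and scaled by the class's Ttn level relative to those barcodes, since Ttn is made by CMs and not by the other classes. This Ttn ratio was 0.132 to 0.665 in FBs, 0.217 to 0.815 in ECs and 0.190 to 0.806 in MACs, and for Ryr2, also a CM gene, the level seen was 0.806 to 1.06 times the scaled one in these classes. In MACs, Smdt1 was a median 1.08 times its scaled level and Letm1 1.24 times, and in ECs 1.12 and 1.24 times. Mcub in MACs was a median 6.05 times its scaled level, Mcu in FBs 4.56 times, Slc8b1 in FBs 3.76 times and Micu3 in FBs 4.08 times, each above the scaled level in 8 of 8 mice. Mcub in ECs, at 0.959 times, was at the reference, and Slc8b1 in ECs was at 1.28 times, above it in 5 of 8 mice. Scaled by the mitochondrial share in place of Ttn, the medians were 4.73 for Mcub in MACs, 2.73 for Mcu, 2.59 for Slc8b1 and 2.79 for Micu3 in FBs, 0.64 for Mcub in ECs and 0.946 for Slc8b1 in ECs, which was above the reference in 3 of 8 mice. On that scale Smdt1 was at 0.847 in FBs, 0.881 in MACs and 0.907 in ECs, and Letm1 at 0.9753, 0.962 and 0.970, so both were below the reference there and above it by Ttn. Ryr2 was at 0.661 in FBs and 0.762 in MACs by the mitochondrial share. In CMs, where Ttn gives no scale, Smdt1 was at 0.947 (above the reference in 3 of 8 mice) and Slc8b1 at 1.12 (in 5 of 8) by the mitochondrial share. Smdt1 and Letm1 in FBs, MACs and ECs, Mcub and Slc8b1 in ECs, and Smdt1 and Slc8b1 in CMs were therefore not clearly above the reference. The low-UMI barcodes were called as cells and can hold nuclei, so the reference is not a measure of free RNA alone. A level at or below it does not show that the transcript came from outside the nuclei.

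**Figure D4:**
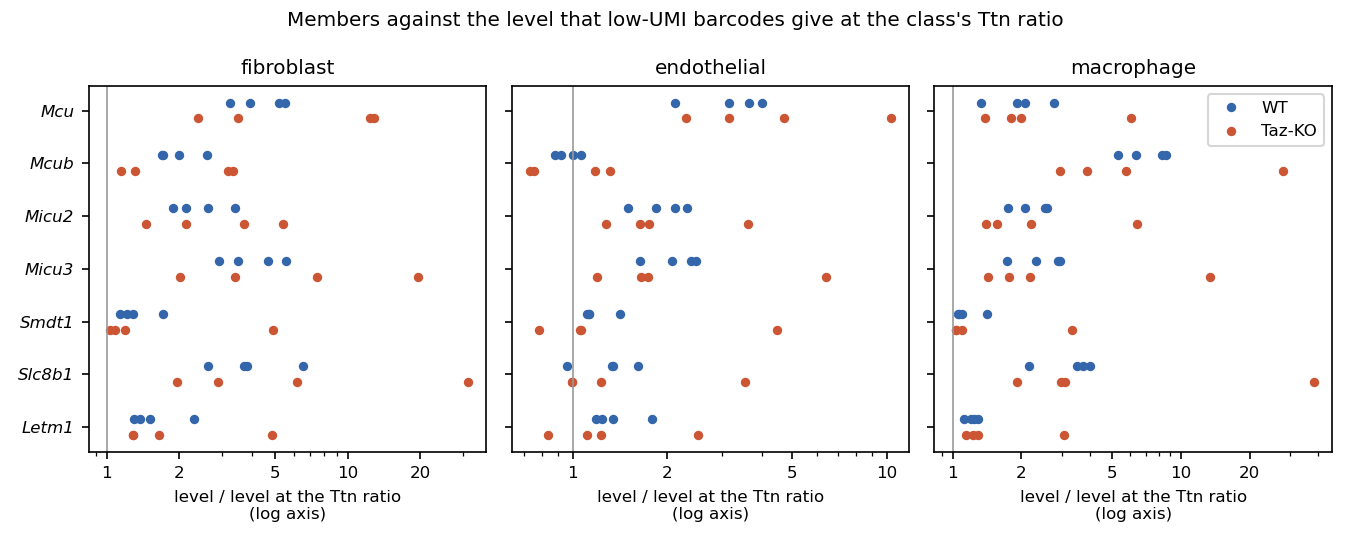
Level of each member divided by the level that the low-UMI barcodes of the same library would give at the class's Ttn ratio, on a log axis, 1 point per mouse. Mcub in macrophages lies at 2.94 to 28.1, while Smdt1 has a median of 1.2 in the fibroblast, 1.12 in the endothelial and 1.08 in the macrophage panel.

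Smdt1 also moved with the library. In WT replicate 5356 it was at 26.5 CPM in FBs, 32.3 CPM in ECs and 35.1 CPM in MACs and in Taz-KO replicate 5301 at 12.96, 19.6 and 12.7 CPM, against 60.7 to 99.8, 68.2 to 119 and 66.4 to 166 CPM in the other mice. Letm1 was lowest in these libraries in the same 3 classes. Taz-KO replicate 5301 had the lowest mitochondrial share of UMIs of all libraries, 1.57%, while WT replicate 5356, at 9.53%, was within the 7.01% to 23.7% of the others. The part of that share in the Smdt1 values was not tested. Smdt1 spans 10.1 kb (chr15:82338959-82349091, plus strand) and overlaps Pheta2 on the same strand, and its counts are uncertain to the extent that the counting could not separate these genes.

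The genes most like each member over 32 sums, 4 main classes in 8 mice, were ranked by Pearson's r of log2(CPM + 1) among 10420 genes. They were Irf8, Zfhx3 and Alcam for Mcub (r = 0.985, 0.980 and 0.980), Adcy7, Il16 and Gas7 for Slc8b1 (r = 0.972, 0.968 and 0.964) and Ctif, Arl15 and Rbms1 for Mcu (r = 0.959, 0.942 and 0.938). For Smdt1 they were Rpl26, D8Ertd738e and Rps14 (r = 0.991, 0.991 and 0.990), among them 2 ribosomal protein genes, and for Letm1 Ndufa12, Cox7a2l and Ptges2 (r = 0.955, 0.952 and 0.947), among them genes of the respiratory chain. Nsd3, Nfkb1 and Thada were closest to Micu3 (r = 0.915, 0.908 and 0.899), and Gatb, Fig4 and Asxl1 to Micu2 (r = 0.827, 0.823 and 0.806). These 32 points share libraries and depth, and r is a description across them.

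Around the complex, 37 other genes of mitochondrial calcium handling were read in the same fits. In CMs 6 were called, 2 higher and 4 lower in Taz-KO mice, where 8.78% of all genes were called higher and 6.56% lower. This is 16.2% of the list against 15.3% of all genes, and the list's median log2 fold change was -0.10 against -0.01. The share called was thus close to that of all genes. The summed smooth muscle markers in the CM nuclei were 11.7 to 50.7 CPM in WT and 52.1 to 237 CPM in Taz-KO mice, without overlap, and their part in the calls was not tested. The CM class was made up differently by genotype: 1 of its 4 clusters held 74, 79, 102 and 80 nuclei of the WT mice and 30, 1090, 484 and 113 of the Taz-KO mice. Some unnamed clusters also scored highest for CM markers and were left out of the CM sums. One held 150, 452, 103 and 48 WT and 9, 627, 465 and 158 Taz-KO nuclei. Another held 114, 215, 149 and 151 WT and 5, 465, 279 and 20 Taz-KO nuclei. The part of these nuclei in the calls was not tested. Within the largest CM cluster alone, an alternative chosen after seeing the data, 6 genes of the list and 0 members were called, beside 12.7% of all genes. Of 12 pores and carriers 1 rose and 2 fell, of 9 dehydrogenase and phosphatase subunits 1 fell, of 10 genes at contacts of the reticulum with mitochondria 1 rose and 1 fell, and of 6 processing and scaffold genes 0 passed.

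Ghitm (TMBIM5), an inner-membrane protein with calcium/proton exchange activity, was at 49.9, 73.2, 62.9 and 26.1 CPM in WT and 130, 146, 188 and 57.1 CPM in Taz-KO cardiomyocytes. It rose by a log2 fold change of 1.18 (SE 0.31, adjusted p = 0.0269 by edgeR), and the groups overlapped in 1 Taz-KO mouse, replicate 5301. Hspa9 (mortalin), the matrix chaperone that also bridges the outer-membrane channel to the reticulum's calcium channel, was at 155, 168, 156 and 76.5 CPM in WT and 318, 307, 399 and 245 CPM in Taz-KO mice. Every Taz-KO mouse was above every WT mouse, as for 15% of all genes in CMs, and its log2 fold change was 1.10 (SE 0.21, adjusted p = 0.00515 by edgeR). For both genes the lowest mouse of each genotype was the one with low Smdt1, WT replicate 5356 and Taz-KO replicate 5301. Neither gene was compared with the low-UMI reference. Ghitm was lower in CMs than in FBs in all mice but Taz-KO replicate 5301. The part of RNA from other cells in its CM values was not tested. Leaving out 1 of 5 mice (Taz-KO replicate 4685, 4910 or 5300, or WT replicate 4686 or 5356) ended the Ghitm call, with adjusted p from 0.0528 to 0.0845, and subtracting 20% of low-UMI RNA gave 0.160.

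Among the genes that fell in CMs, Tmem65, an inner-membrane protein linked to sodium-dependent calcium release from mitochondria, was at 279, 397, 332 and 390 CPM in WT and 175, 224, 185 and 179 CPM in Taz-KO mice. Its log2 fold change was -0.97 (SE 0.20, adjusted p = 0.00899 by edgeR). Itpr1, the inositol trisphosphate receptor of the reticulum, was at 437, 435, 400 and 572 CPM in WT and 231, 287, 241 and 221 CPM in Taz-KO mice, a log2 fold change of -1.02 (SE 0.22, adjusted p = 0.00943). The groups did not overlap for either gene. Mcur1, a regulator of uniporter assembly, fell from 45.1, 42.6, 43.8 and 39.6 CPM in WT to 31.3, 31.5, 34.0 and 27.3 CPM in Taz-KO mice, a log2 fold change of -0.56 (SE 0.13, adjusted p = 0.0128). Pdp2, a catalytic subunit of pyruvate dehydrogenase phosphatase, was at 8.45, 10.6, 11.2 and 10.0 CPM in WT and 4.32, 4.11, 4.81 and 2.84 CPM in Taz-KO mice, a log2 fold change of -1.44 (SE 0.20, adjusted p = 0.000827 by edgeR). Pdp2 is not the calcium-stimulated isoform of that phosphatase, which is Pdp1, and Pdp1 was not called. Without Taz-KO replicates 4685 and 5301 the calls of Tmem65, Itpr1 and Mcur1 were lost at similar fold changes, and 3 of the 37 genes were called, beside 10.3% of all genes.

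**Figure D5:**
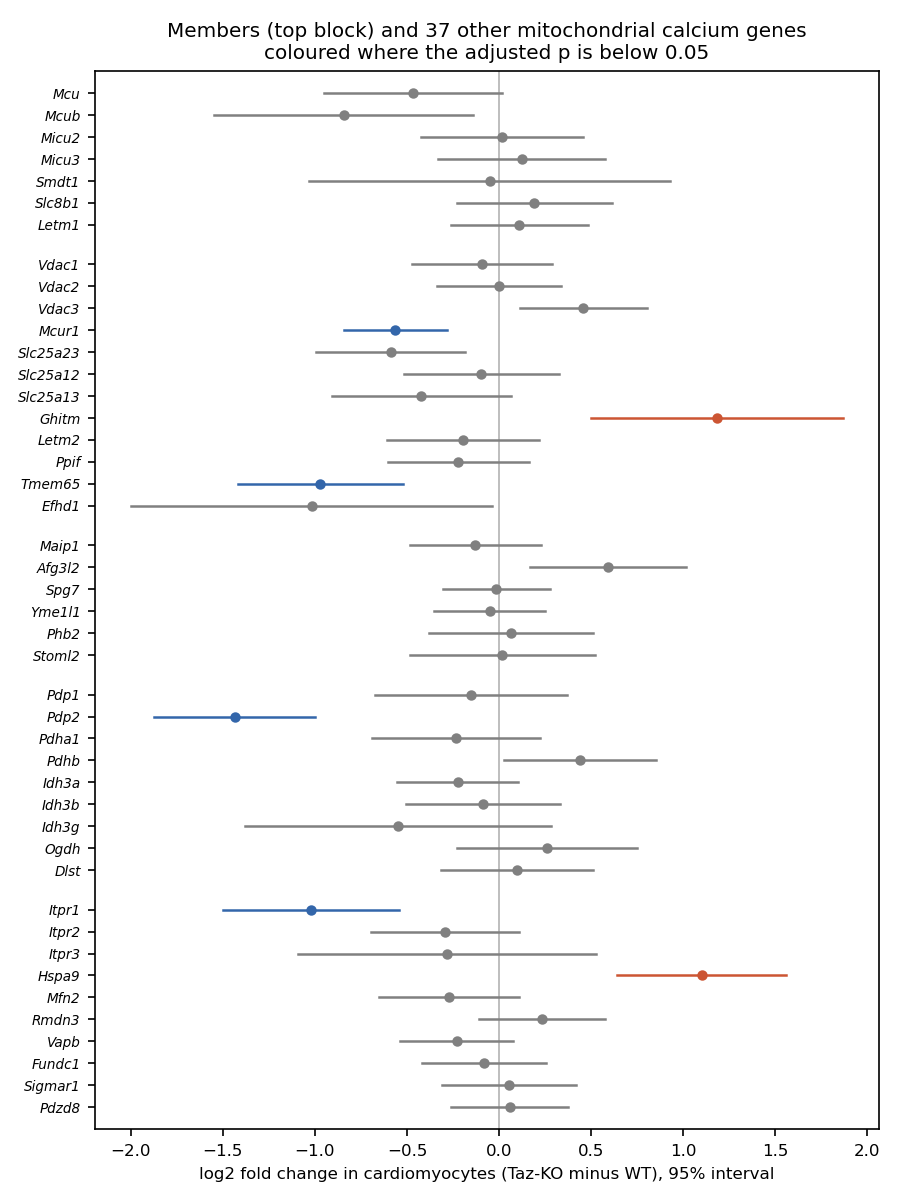
Log2 fold change in cardiomyocytes, Taz-KO minus WT, with 95% intervals for the 7 members in the top block and 37 other mitochondrial calcium genes in 4 blocks below. Colour marks the 6 genes with an adjusted p below 0.05, Ghitm and Hspa9 higher and Mcur1, Tmem65, Pdp2 and Itpr1 lower, and no member is among them.

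In FBs, ECs and MACs 0 of the 37 genes were called by edgeR, with 2, 2 and 1 at an unadjusted p below 0.05, beside the 9.61%, 8.37% and 5.85% of all genes given above. DESeq2 called 1 in FBs, Efhd1, where it called 1.96% of all genes. In these classes Ghitm had log2 fold changes of 1.08 (SE 0.63), 1.35 (SE 0.55) and 1.27 (SE 0.63), each with a wider SE than in CMs. The difference between the CM and the FB effect passed limma's test for Itpr1 (-0.93, SE 0.17, adjusted p = 0.0228) and Tmem65 (-0.63, SE 0.11, adjusted p = 0.0212), so both fell more in CMs than in FBs. Against FBs 3.36% of all genes passed that test. In adipocytes Ghitm (log2 fold change 1.80, SE 0.34, adjusted p = 0.0230) and Hspa9 (1.24, SE 0.28, adjusted p = 0.0372) passed edgeR's test, 2 of 35 genes of the list against 3.85% of all genes. These adipocyte genes were named after their values were seen. At an unadjusted p below 0.05 by edgeR there were 15 of the 35 adipocyte genes, beside 22.7% of all genes. The Ttn ratio of the adipocyte nuclei was as high as 0.875, so CM transcripts reached this class, and their part was not tested. The macrophage, lymphocyte and smooth muscle markers given above for adipocyte nuclei also differed by genotype without overlap, and their part in these calls was not tested.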

How the data were processed

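Single-nucleus RNA-seq libraries of 4 WT and 4 Taz-KO hearts were analysed from the deposited UMI counts per gene and barcode. The authors made these counts with Cell Ranger 6.0.1 on an mm10 reference and had called the barcodes as cells. The background correction and doublet removal of the study are not part of these counts. The minimum per barcode was 800 UMIs and 250 genes, and doublet-scored barcodes were removed per library (0.8% per 1000 nuclei, at most 10%), 16231 of 167495. Nuclei were clustered on 2000 variable genes, leaving out the members, the other calcium genes and Taz, with 15 components integrated over libraries, 20 neighbours and Leiden resolution 0.9. Of 38 clusters 14 were named from markers, with limits set after the marker scores were seen. Counts were summed per mouse and class, leaving out mitochondrially encoded genes and sums of fewer than 10 nuclei.

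Sums were tested with edgeR 4.0.16 (TMM scaling, quasi-likelihood test, Benjamini-Hochberg adjustment over all genes of a class) in R 4.3.3, with DESeq2 1.42.0 as an alternative. Differences between classes were tested with limma 3.58.1. Ratios (0.5 added to counts) and shares of nuclei were tested with exact two-sided permutation tests, and class levels were compared within mice as log2(CPM + 1) without a test. These steps were run with scipy 1.17.1 and numpy 2.4.6 under Python 3.11.15, beside scikit-learn 1.9.0 and python-igraph 0.11.9. Scripts were tested on simulated data. The smallest p is 0.0286 for 4 against 4 mice. The members and gene lists were chosen with earlier results of these data known. The genes named were the 7 members, Taz, the other calcium genes called in a main class, and the 3 genes most like each member (mean of at least 10 CPM). Alternatives were RLE scaling, DESeq2, no filter on low counts, each mouse left out, both small libraries left out, low-UMI RNA subtracted, doublets kept, at most 5% mitochondrial UMIs, and classes from marker pairs alone. Intervals are 95%, and limits for a count of 0 (3 counts) cover counting error only.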

Additional observations from a re-analysis of the deposited data

Results flagged for a closer look

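In 64 groups of 4 mice, a member or Taz in 1 main class and genotype, 5 held a mouse far from the other 3, where chance gives about 1 in 20. In Taz-KO replicate 5301, 3 of these were found: Mcu in endothelial cells was at 332 CPM against 168 to 190 CPM in the other Taz-KO mice, Smdt1 in endothelial cells at 19.6 CPM against 103 to 119 CPM, and Slc8b1 in macrophages at 97.3 CPM against 53.6 to 59.6 CPM. In WT cardiomyocytes, Micu3 in replicate 5355 was at 36.9 CPM against 50.5 to 52.2 CPM, and Slc8b1 in replicate 4909 was at 10.7 CPM against 7.99 to 8.31 CPM.

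The Taz-KO effect differed between cardiomyocytes and fibroblasts for a pair of the other calcium genes, where 3.36% of all genes passed the same test. The cardiomyocyte effect minus the fibroblast effect was -0.93 on the log2 scale for Itpr1 (adjusted p = 0.0228) and -0.63 for Tmem65 (adjusted p = 0.0212), both by limma with Benjamini-Hochberg adjustment over all genes.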

How the results depend on the processing

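No member was called under any alternative. Of 453 alternative fold changes of members in the main classes 404 kept their direction and 49 turned it, and the cause was not tested. No paired analysis was run, because the sample labels give no pairing or batch, and whether mice were paired is not known. Cardiomyocyte Micu2 turned to -0.0017 with RLE scaling, -0.0026 with DESeq2, -0.018 with no filter on low counts, -0.0031 after subtracting 20% low-UMI RNA and -0.035 in the largest cardiomyocyte cluster. Without both small libraries it was -0.15, cardiomyocyte Micu3 -0.029 and Smdt1 0.23, fibroblast Letm1 0.070, endothelial Mcu -0.22, Slc8b1 0.016 and Letm1 0.061, and macrophage Slc8b1 -0.081. Cardiomyocyte Smdt1 was 0.35 at no more than 5% mitochondrial UMIs and 0.016 in the largest cluster. Fibroblast Smdt1 was -0.010 with DESeq2, -0.0095 with no filter and -0.045 after 20% subtraction, and with the Ttn share subtracted it was -0.44 in fibroblasts and -0.62 in endothelial cells. Endothelial Mcu was -0.016 with no filter and -0.086 from marker pairs alone, where macrophage Mcub was 0.029. The largest-cluster and Ttn-share settings were added after seeing the data.

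With 1 mouse left out, these also changed sign, over these ranges: in cardiomyocytes Micu2 -0.093 to 0.16, Micu3 -0.0091 to 0.27, Smdt1 -0.31 to 0.21, Letm1 -0.022 to 0.18 and the Smdt1 to Mcu ratio -0.096 to 0.96. They were in fibroblasts Micu3 -0.19 to 0.090 and Smdt1 -0.24 to 0.35, in endothelial cells Mcu -0.27 to 0.12 and Smdt1 -0.10 to 0.45, and in macrophages Mcub -0.67 to 0.15, Micu3 -0.32 to 0.13, Slc8b1 -0.14 to 0.18 and Letm1 -0.16 to 0.26. The Taz call in cardiomyocytes was lost at -0.72 to -0.48 with 1 mouse left out, at -0.60 after 20% subtraction and at -0.63 with the mitochondrial limit. The 6 calcium genes called in cardiomyocytes became 3 without both small libraries, and DESeq2 called 1 in fibroblasts against 0. The mitochondrial limit gave values in cardiomyocytes only, and Mcub there had none after 20% subtraction.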
